A study of Homo sapiens with 8 samples.

Results

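The genes described here are the inhibitors, cyclins and kinases that govern passage through the first gap phase of the cell cycle, together with the inhibitors and target genes of the p53 protein. They were followed across the parental Jurkat line, which derives from a human T cell leukaemia, and 3 TRAIL-resistant Jurkat subclones. TRAIL, a cytokine related to tumour necrosis factor, can start apoptosis by binding death receptors. Of 38 listed genes, 35 had a probe that carried their name on the array, with 42 probes in all. A probe was kept when at least 1 line had both of its arrays at a detection p-value under 0.05, a value that compares the signal with negative control beads. By that rule 29 genes were kept through 31 probes, of 10681 genes and 13130 probes kept in all.

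The 4 lines were each hybridised to 2 arrays of the Illumina HumanRef-8 BeadChip platform, giving 8 arrays. The line called WT was the untreated parental Jurkat culture. The lines TR1, TR2 and TR3 were established from it under selection with 1000 ng/mL TRAIL for 12 weeks. Each was a single subclone, and the labels list no treatment of the cells before RNA was taken. Cells of every group were grown in Iscove's medium with fetal serum and antibiotics, and the labels call the 2 arrays of a line biological duplicates. No subclone kept without TRAIL was among the samples, so selection cannot be told apart from subcloning and time in culture. The letters A and B name the arrays of a line. A fold change here compares bulk RNA, in which fewer cells of a state and less RNA per cell cannot be told apart.

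Cyclin-dependent kinases drive the cell from the first gap phase into DNA synthesis when they bind D-type and E-type cyclins. They phosphorylate the retinoblastoma protein, which then releases E2F transcription factors that switch on replication genes. INK4 inhibitors bind CDK4 and CDK6 directly, whereas CIP/KIP inhibitors bind cyclin-kinase complexes more broadly. The p53 protein switches on arrest, repair and death genes after damage, and MDM2, itself a p53 target, sends p53 for degradation. Jurkat cells are known to lack working p53, so the p53 target genes are described here as a list of names and not as a readout of p53.

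The arrays detected 12408 to 13437 of 22184 probes, and median raw intensities were 68.08 to 82.98. Of the T cell marker list, 11 of 11 genes were detected and 0 were called in any clone without the replicate number as a block. With it, on the authors' processed values, CD28 was called higher in TR1 (0.40, adjusted p = 0.0099). CD2 and CD3D were then called lower in TR2 (-0.61, adjusted p = 0.0011, and -0.36, adjusted p = 0.034). The summed raw intensity was 17135 to 19295 in WT, 17178 to 17212 in TR1, 16618 to 17736 in TR2 and 18830 to 19858 in TR3. None of 5 myeloid genes and not the 1 erythroid gene on the array passed the detection rule. Of 4 B cell genes on the array 2 were detected, and their list summed to 474 on both TR1 arrays against 546 to 601 in WT, 556 to 644 in TR2 and 588 to 653 in TR3. The 2 detected genes, both parts of the B cell receptor complex, went opposite ways in TR1. CD79A stood at log2 intensities of 6.65 and 7.63 in WT and 5.57 and 5.74 in TR1. Its difference from WT was -1.48 ± 0.34 with an adjusted p of 0.062, and -1.01 with the block, on the authors' values (adjusted p = 1.1e-05). CD79B stood at 5.83 and 5.74 in WT and 6.04 and 6.43 in TR1, a difference of 0.45 ± 0.18 (adjusted p = 0.27, and 0.069 with the block). Of 3 natural killer genes 2 were detected, with sums of 477 to 596 in WT, 552 to 668 in TR1, 495 to 560 in TR2 and 563 to 608 in TR3. NKG7, a cytotoxic granule gene, was called with the block, at 0.48 in TR1 (adjusted p = 0.0017) and -0.53 in TR2 (adjusted p = 0.0012). In the fit without the block NKG7 differed by 0.56 and -0.69, with adjusted p of 0.25 and 0.26. The block called 8.77% of all probes in TR1 and 3.88% in TR2, either way. MS4A1 and PAX5, which define B cells, were detected on 0 arrays. The part of any of these genes in the results below was not tested.

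Of the 31 probes, 1 passed the test against WT in 1 clone. CDKN2D, which encodes the INK4 inhibitor p19, was 1.66-fold higher in TR1, while TR2 and TR3 were within 0.03 of WT on the log2 scale. No other inhibitor, cyclin, kinase or p53-linked gene was called against WT in any clone. TP53I3, a quinone oxidoreductase gene known as a p53 target, differed among the clones by the F test over TR1, TR2 and TR3 without a call against WT. Values below are log2 intensities after background correction and quantile normalisation, errors are standard errors from limma's fit over all 8 arrays, and p-values are adjusted over the 13130 probes by the Benjamini-Hochberg method. A probe was called when its adjusted p was under 0.05. Values with the replicate block come from the authors' processed intensities instead. Each line has both replicate numbers, so the block alters the error of a difference. Its size changes with the other intensities and not with the block.

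The promoters of the called inhibitor, of the gene that varied among the clones and of E2F1 are shown. E2F1, the transcription factor downstream of the kinases, was not itself called in any comparison. Each is the stretch of 250 bases before the RefSeq transcription start, on the GRCh38.p14 build, read 5′ to 3′ on the gene's own strand. Capitals mark matches, on either strand, to CCAAT (the CCAAT box), GGGCGG (the GC box) and 4 E2F words, TTTGGCGC, TTTCGCGC, TTTCCCGC and TTTGCCGC. The CDKN2D promoter lies at chr19:10568980-10569229, that of TP53I3 at chr2:24084835-24085084 and that of E2F1 at chr20:33686386-33686635, all on the minus strand.
CDKN2D: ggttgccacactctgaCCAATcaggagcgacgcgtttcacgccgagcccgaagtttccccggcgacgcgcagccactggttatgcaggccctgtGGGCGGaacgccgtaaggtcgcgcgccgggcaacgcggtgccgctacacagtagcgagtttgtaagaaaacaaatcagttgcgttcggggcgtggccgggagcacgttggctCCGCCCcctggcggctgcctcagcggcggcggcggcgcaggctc
TP53I3: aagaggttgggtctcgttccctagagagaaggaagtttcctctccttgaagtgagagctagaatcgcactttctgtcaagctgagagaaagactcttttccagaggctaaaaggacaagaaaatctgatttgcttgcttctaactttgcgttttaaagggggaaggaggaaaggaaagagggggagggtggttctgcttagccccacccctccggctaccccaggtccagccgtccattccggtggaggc
E2F1: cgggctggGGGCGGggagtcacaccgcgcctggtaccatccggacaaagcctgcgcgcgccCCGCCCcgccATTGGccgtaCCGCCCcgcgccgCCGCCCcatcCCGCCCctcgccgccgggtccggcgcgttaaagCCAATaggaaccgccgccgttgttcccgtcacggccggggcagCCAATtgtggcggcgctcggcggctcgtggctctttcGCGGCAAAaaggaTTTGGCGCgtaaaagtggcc

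In these windows CDKN2D held 1 CCAAT box, 234 bases before the start, and GC boxes 156 and 44 bases before it. E2F1 held E2F words 33 and 20 bases before its start. TP53I3 held none of the 3 motifs. RefSeq promoters were at hand for 31 of the 38 listed genes. An E2F word occurred in 5 of them (16.1%, namely MDM2, BTG1, AEN, XPC and E2F1), against 2.79% of all 35116 promoters of this length. The CCAAT box occurred in 14 (45.2% against 32%), the GC box in 22 (71% against 42.6%) and TATAAA in 2 (6.45% against 10.7%). A p53 half-site, the decamer that p53 binds as a repeat, occurred in 4 (PLK2, AEN, FDXR and RB1; 12.9% against 5.57%). E2F words contain no CCAAT or GC box, and each share is a description of letters in a window.

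Among the CIP/KIP inhibitors, 0 of 3 genes were called in any clone. CDKN1A, which encodes p21, the best known p53 target among the inhibitors, stood at 6.09 and 6.27 in WT, 5.88 and 6.02 in TR1, 6.03 and 6.26 in TR2 and 6.02 and 6.25 in TR3. Both TR1 arrays lay below both WT arrays, and TR2 and TR3 overlapped WT. The TR1 difference was -0.23 ± 0.13 with a 95% interval of -0.53 to 0.06 (adjusted p = 0.43). A second CDKN1A probe was detected on 0 of 8 arrays.

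CDKN1B, which encodes p27, read 9.42 and 9.52 in WT, 9.69 and 9.76 in TR1, 9.50 and 9.45 in TR2 and 9.57 and 9.61 in TR3. The arrays of TR1 and TR3 lay above those of WT, by 0.25 ± 0.10 (adjusted p = 0.26) and 0.12 ± 0.10 (adjusted p = 0.76). CDKN1C, which encodes p57, read 6.01 and 6.42 in WT, 5.40 and 5.99 in TR1, 5.89 and 6.19 in TR2 and 5.93 and 6.03 in TR3. Its TR1 arrays were both lower than either WT array but differed from each other by 0.58, the widest gap between TR1 duplicates among the members. The TR1 difference was -0.52 ± 0.20 (adjusted p = 0.25), and with the replicate number as a block, on the authors' processed values, it was -0.31 (adjusted p = 0.032).

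Of the 4 INK4 inhibitors, 3 had a probe and CDKN2D alone was detected. CDKN2D, on chromosome 19, read 10.07 and 10.04 in WT, 10.77 and 10.80 in TR1, 10.18 and 9.99 in TR2 and 10.04 and 10.07 in TR3. Raw intensities were 1149.3 and 1057.2 in WT, 1686.1 and 1674.2 in TR1, 1235.6 and 996.6 in TR2, and 1205.1 and 1191.9 in TR3. Both TR1 arrays lay above all 6 others, whereas those of the other 3 lines overlapped. CDKN2D rose in TR1 by 0.73 ± 0.11 (SE, n = 2 arrays per line), a 1.66-fold difference with a 95% interval of 0.49 to 0.96 on the log2 scale (limma, adjusted p = 0.0069). The difference was 0.03 ± 0.11 in TR2 (95% interval -0.21 to 0.26) and 0.00 ± 0.11 in TR3 (-0.24 to 0.23).

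Set against TR1 directly, CDKN2D was lower by 0.70 in TR2 (log2 difference -0.70 ± 0.11, adjusted p = 0.0046) and by 0.73 in TR3 (-0.73 ± 0.11, adjusted p = 0.0091). TR3 and TR2 differed by -0.03 ± 0.11 (95% interval -0.27 to 0.21). The first of these calls was lost without TR2 array B (adjusted p = 0.053), and the second without any single array of TR1 or TR3 (0.074 to 0.089). The F test among the clones, at an adjusted p of 0.005, was lost without either TR1 array (0.052 without A and 0.062 without B). The size of the TR1 rise stayed between 0.71 and 0.74 without either TR1 array, but the call was lost, at an adjusted p of 0.056 without array A and 0.055 without array B.

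The other CDKN2D probe was dimmer, at 5.60 and 6.05 in WT, 6.67 and 6.41 in TR1, 6.20 and 5.98 in TR2 and 5.87 and 5.65 in TR3. Again both TR1 arrays were the highest. Its TR1 difference was 0.72 ± 0.17, which missed the threshold (adjusted p = 0.064). With the replicate block it was 0.46 (adjusted p = 0.0061), and without WT array B, the higher of the WT pair, 0.95 (adjusted p = 0.049). Its TR2 difference of 0.27 ± 0.17 had an adjusted p of 0.58.

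**Figure D1:**
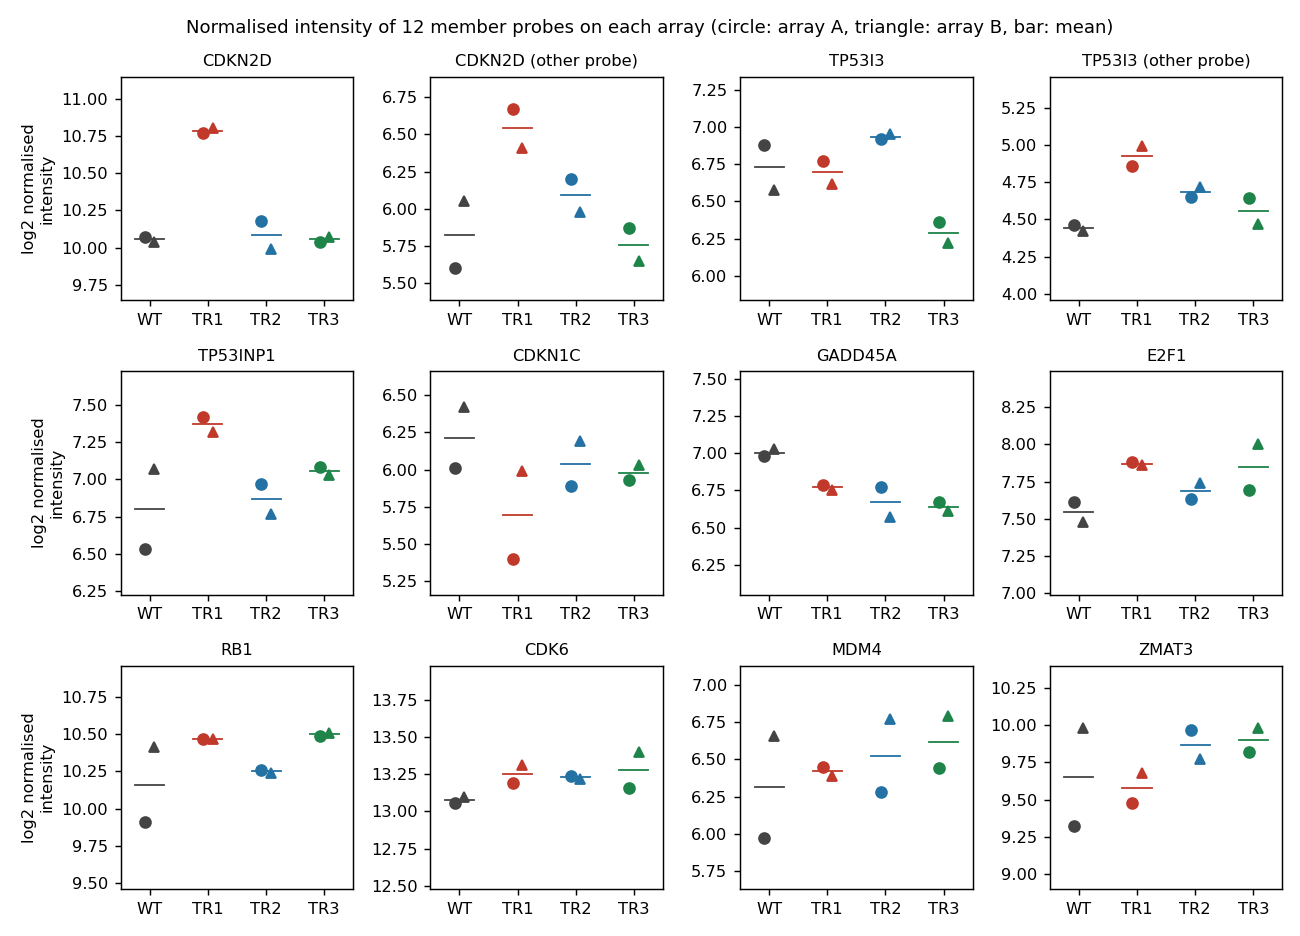
Log2 normalised intensity (vertical axis, the same 1.5-unit span in every panel) of 12 member probes in the 4 lines, with a circle for array A, a triangle for array B and a bar at their mean. Both CDKN2D probes are highest on the 2 TR1 arrays, and the GADD45A arrays of all clones lie below both WT arrays.

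The other INK4 genes gave no level. CDKN2A, which encodes p16 and, from another reading frame, the MDM2-binding protein ARF, had 3 probes, which were detected on 3, 1 and 0 of 8 arrays. The arrays concerned were WT B, with detection values of 0.0217 and, for the second probe, 0.0326, TR2 B (0.0435) and TR3 B (0.0444), so the detection rule failed in every line. CDKN2B, which encodes p15, had 2 probes, detected on 0 arrays. Both genes lie in a region of chromosome 9 that is often deleted in T cell leukaemias. CDKN2C had no probe named for it and was not analysed here.

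Among the inhibitors of p53, 0 of 3 genes were called in any clone. MDM2, the ubiquitin ligase of p53, read 5.27 and 5.01 in WT, 5.07 and 5.27 in TR1, 4.85 and 5.25 in TR2 and 5.24 and 5.28 in TR3. The lines overlapped, with differences of 0.04, -0.09 and 0.12 in TR1, TR2 and TR3, each ± 0.15. MDM4, its relative that masks the activating region of p53, read 5.97 and 6.66 in WT, 6.45 and 6.39 in TR1, 6.28 and 6.77 in TR2 and 6.44 and 6.79 in TR3. The WT duplicates of MDM4 were 0.69 apart, the widest gap in that line, and differences of 0.11, 0.21 and 0.30 (each ± 0.23) lay within it. PPM1D, the phosphatase that reverses p53 signalling, differed by 0.00, -0.07 and -0.12 (each ± 0.12).

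Of the 17 p53-linked arrest and stress genes, 15 had a probe and 13 were detected, through 14 probes, none of which was called against WT. TP53I3 read 6.88 and 6.58 in WT, 6.77 and 6.62 in TR1, 6.92 and 6.95 in TR2 and 6.36 and 6.22 in TR3. Both TR3 arrays lay below the other 6, and both TR2 arrays above them. The F test among the clones gave an adjusted p of 0.049, which rose to between 0.086 and 0.25 when any single clone array was left out. TR3 against WT was -0.44 ± 0.13 (adjusted p = 0.30), and TR3 against TR2 was -0.64 ± 0.13 (adjusted p = 0.059, and 0.0035 with the replicate block).

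The other TP53I3 probe followed the first only in part. It read 4.46 and 4.42 in WT, 4.86 and 4.99 in TR1, 4.65 and 4.72 in TR2 and 4.64 and 4.47 in TR3, and was detected on 3 of 8 arrays, both of TR1 and 1 of TR2. WT was below detection on both arrays, so TR1 was at least 1.12-fold higher. The probe had passed the detection rule only through TR1, where it was high, so no test of that difference is given. That bound set the mean of TR1 against the dimmest detected signal, or the probe's own where higher, in WT. Both probes read lower on the TR3 arrays than on those of TR1 and TR2. They differed in that the first was highest in TR2 and the other in TR1. WT had the lowest mean at the other probe only, which was below detection in both WT and TR3.

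TP53INP1, a stress protein gene induced by p53 and by its relatives, read 6.53 and 7.07 in WT, 7.42 and 7.32 in TR1, 6.97 and 6.77 in TR2 and 7.08 and 7.03 in TR3. TR1 was above both WT arrays, which were themselves 0.54 apart. The TR1 difference of 0.57 ± 0.16 missed the threshold (adjusted p = 0.12). It was 0.43 with the replicate block, on the authors' values (adjusted p = 0.014), and 0.84 without WT array B.

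GADD45A, which encodes a damage-induced protein that binds p21 and slows the cycle, read 6.98 and 7.03 in WT, 6.79 and 6.75 in TR1, 6.77 and 6.57 in TR2 and 6.67 and 6.61 in TR3. All 6 clone arrays lay below both WT arrays, as did those of 4.91% of all probes. The differences were -0.24, -0.33 and -0.36 (each ± 0.11), with adjusted p of 0.32, 0.27 and 0.31. The mean of the clones differed by -0.31 ± 0.09 (95% interval -0.51 to -0.11, adjusted p = 0.24). GADD45B, its relative, differed by -0.29 in TR1, -0.14 in TR2 and 0.02 in TR3 (each ± 0.13).

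The remaining arrest and stress genes differed from WT by at most 0.25 either way. BTG1, an antiproliferative gene, differed by -0.11, -0.11 and -0.13 (each ± 0.22) with WT duplicates at 9.96 and 10.62. ZMAT3, a p53-induced RNA-binding protein gene, read 9.32 and 9.98 in WT, 9.48 and 9.68 in TR1, 9.97 and 9.77 in TR2 and 9.82 and 9.98 in TR3. To 2 decimals every clone array of ZMAT3 lay within the WT pair, and the differences were -0.07, 0.22 and 0.25 (each ± 0.19). SESN1, a stress-induced inhibitor of the growth kinase mTORC1, differed by -0.08, 0.17 and 0.17 (each ± 0.13). CCNG1 and CCNG2, the G-type cyclins, differed by at most 0.23. AEN, an exonuclease gene, differed by 0.19, 0.06 and -0.10 (each ± 0.12). TIGAR, which lowers glycolytic flux, PHLDA3, which restrains AKT, and PLK3, a stress-responsive kinase, differed by -0.17 to 0.23 over the clones. PLK3 was detected on 6 of 8 arrays, with 1 of 2 in WT and in TR2.

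Of the same group, GADD45G and PLK2 failed the detection rule. GADD45G was detected on 0 arrays and PLK2 on 1, TR2 B, at a p-value of 0.0435. FDXR and BTG2 had no probe named for them and were not analysed here.

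**Figure D2:**
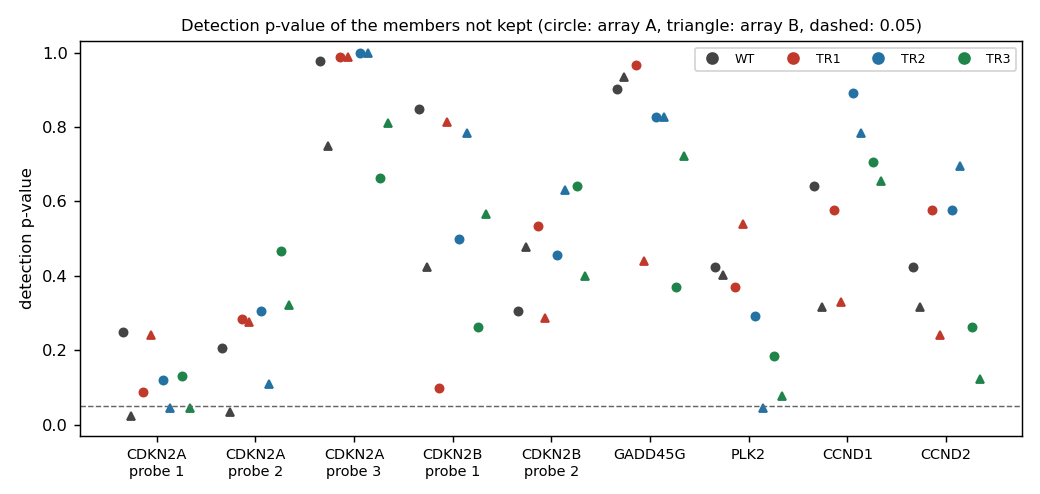
Detection p-value (vertical axis) of each probe of the 6 member genes that failed the detection rule, on 8 arrays coloured by line, with circles for array A, triangles for array B and a dashed line at 0.05. The points under the line are single arrays of CDKN2A and PLK2.

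The DNA repair and nucleotide supply genes XPC, DDB2 and RRM2B had 0 calls among 3 against WT. DDB2, a damage-recognition gene, read 6.40 and 6.87 in WT, 6.29 and 6.57 in TR1, 6.34 and 6.61 in TR2 and 6.11 and 6.58 in TR3. Array B was the higher of every pair, by 0.47 in WT, 0.28 in TR1 and in TR2 and 0.46 in TR3. Each clone read below WT on the array of the same letter, and the differences were -0.21, -0.16 and -0.29 (each ± 0.20). With the replicate block, on the authors' values, they were -0.15, -0.12 and -0.20 (each ± 0.08, adjusted p = 0.31, 0.52 and 0.24). XPC, which recognises damaged DNA in nucleotide excision repair, differed by -0.16, 0.15 and 0.02 (each ± 0.11). TR2 exceeded TR1 in XPC by 0.31 ± 0.11 (adjusted p = 0.16, and 0.03 with the replicate block). RRM2B, a ribonucleotide reductase subunit gene, differed by -0.19, -0.19 and -0.11 (each ± 0.14).

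Among the G1 cyclins and kinases, 4 of 6 genes were detected and 0 were called. CCND1 and CCND2 were detected on 0 of 8 arrays, and CCND3 was therefore the only D-type cyclin with a level. CCND3 read 12.89 and 13.05 in WT, 13.08 and 13.25 in TR1, 12.91 and 13.01 in TR2 and 12.91 and 13.06 in TR3. TR1 lay above WT by 0.20 ± 0.12 (adjusted p = 0.45), and TR2 and TR3 were within 0.02 of it.

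CDK6, the kinase partner of D-type cyclins and the target of p19, read 13.06 and 13.10 in WT, 13.19 and 13.31 in TR1, 13.24 and 13.22 in TR2 and 13.16 and 13.40 in TR3. All 6 clone arrays lay above both WT arrays, as did those of 4.99% of all probes. CDK6 differed from WT by 0.17, 0.15 and 0.20 (each ± 0.11, adjusted p = 0.51, 0.66 and 0.61). CDK4, its close relative, differed by 0.04, 0.00 and -0.20 (each ± 0.11), and both TR3 arrays were below WT. CCNE1, the E-type cyclin that acts after the D type, differed by -0.05, -0.21 and -0.16 (each ± 0.12). A second CCNE1 probe failed the detection rule.

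RB1, which encodes the retinoblastoma protein, read 9.91 and 10.41 in WT, 10.47 and 10.47 in TR1, 10.26 and 10.24 in TR2 and 10.49 and 10.51 in TR3. TR1 and TR3 lay above both WT arrays by 0.31 and 0.34 (each ± 0.15, adjusted p = 0.34 and 0.49), while TR2 lay between them. The WT duplicates were 0.51 apart. Of all probes, 23.9% had both TR1 arrays above both WT arrays, and 19.7% had both TR3 arrays above them. E2F1 read 7.61 and 7.48 in WT, 7.88 and 7.86 in TR1, 7.63 and 7.74 in TR2 and 7.69 and 8.0 in TR3. All 6 clone arrays of E2F1 were above both WT arrays, by 0.32, 0.14 and 0.29 (each ± 0.13, adjusted p = 0.25, 0.72 and 0.48). The same order held for 4.99% of all probes.

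**Figure D3:**
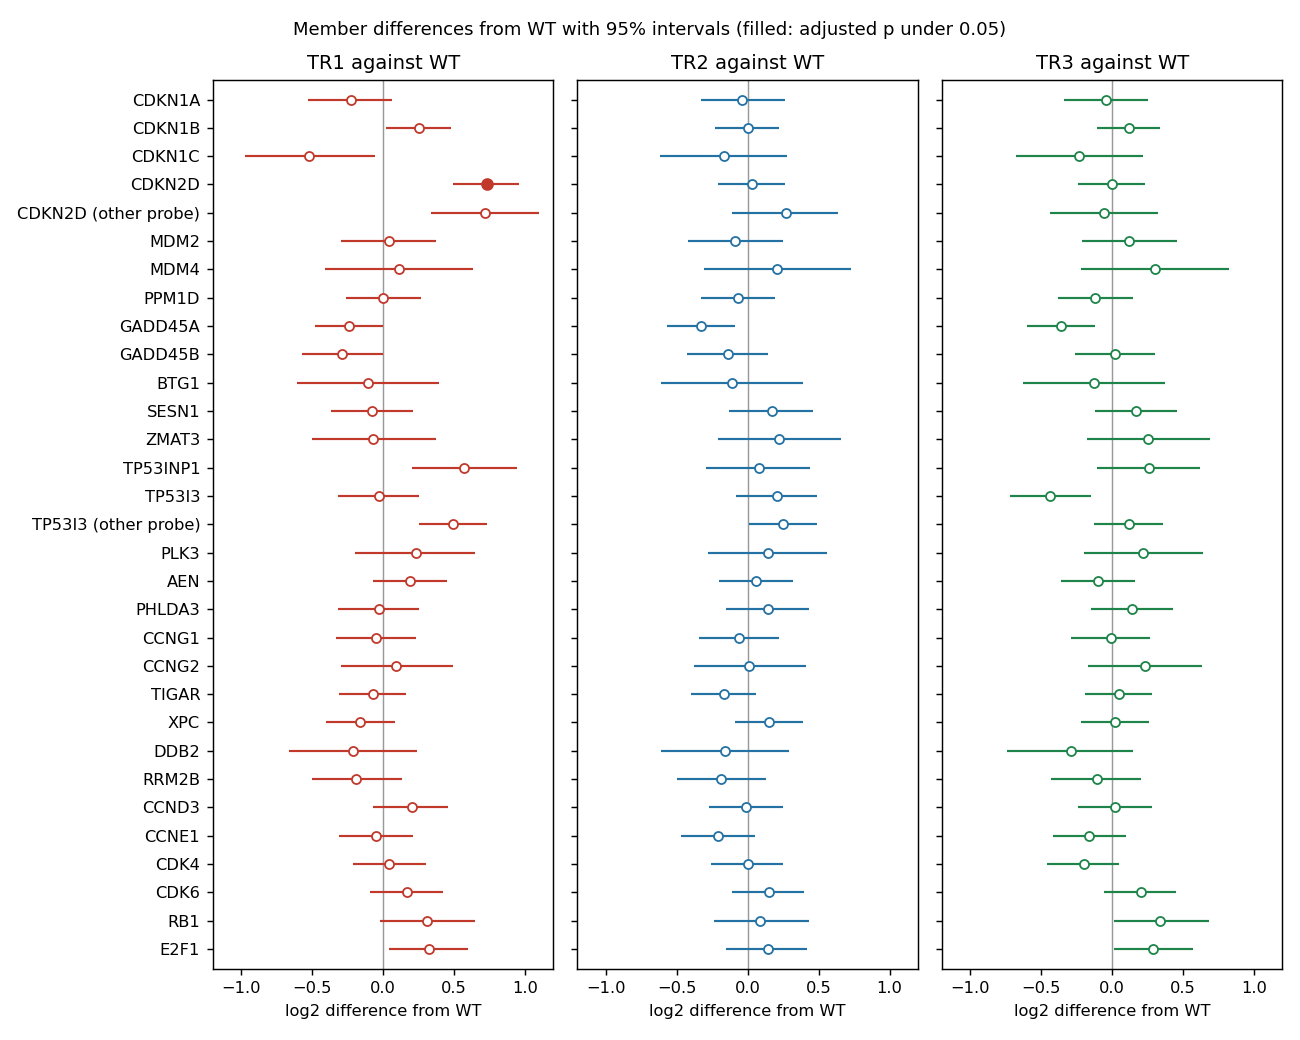
Log2 difference from WT (horizontal axis) of the 31 member probes in TR1, TR2 and TR3, with points for the estimate, lines for the 95% interval and filled points for an adjusted p under 0.05. The one filled point is CDKN2D in TR1, at 0.73.

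The counts of calls, taken over the 31 member probes and not over genes, were set against those over all probes. In TR1, 1 of 31 probes was called higher (3.23%), where 0.594% of all probes were higher and 2.25% changed either way. In TR2 and TR3, 0 were called, against 0.632% and 0.297% of all probes. At an unadjusted p under 0.05 there were 2 and 4 member probes (6.45% against 11.7%, and 12.9% against 10.1%). In TR1 that count was 8 (25.8% against 16.2%). For the mean of the clones 0 were called (background 0.396%), with 6 at an unadjusted p under 0.05 (19.4% against 11.3%). The unadjusted counts in TR1, in TR2 and for the mean include the other TP53I3 probe, kept only through TR1, where it was high. They are therefore given as counts and not as support. With the replicate block, 4 member probes were called in TR1 (12.9% against 8.77% of all probes), both CDKN2D probes and TP53INP1 higher and CDKN1C lower. In TR2 (background 3.88%) and in TR3 (2.25%) 0 were called. The 3 comparisons share the WT arrays, so their values are not independent.

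Between the clones, CDKN2D was the 1 member called, lower, in TR2 against TR1 (background 4.69% either way and 1.72% lower) and in TR3 against TR1 (1.54% and 0.51%), and 0 were called in TR3 against TR2 (0.784%). With the block, 3, 2 and 1 member probes were called in these comparisons, against 11.3%, 7.4% and 3.84% of all probes. Those in TR3 against TR1 were both of CDKN2D. TP53INP1 was then called in TR2 against TR1, at -0.38 (adjusted p = 0.023). The F test called 2 members (6.45%, against 3.71% of all probes).

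Counted by arrays alone, 11 member probes had both TR1 arrays above both WT arrays (35.5%, against 23.9% of all probes). For 6 both were below (19.4% against 21%). For TR2 the counts were 5 above (16.1% against 19.8%) and 3 below (9.68% against 19.9%). For TR3 they were 7 above (22.6% against 19.7%) and 4 below (12.9% against 19.3%). The count above WT in each clone includes the other TP53I3 probe, kept only through TR1, where it was high. The counts above WT in TR1 and TR3 also include PLK3, kept only through those clones, where its means were highest (5.05 in each, against 4.83 in WT). These counts are therefore not given as support. The first TP53I3 probe was among those below WT in TR3. All 6 clone arrays lay above both WT arrays for 3 members (9.68% against 4.99%), CDK6, E2F1 and the other TP53I3 probe (kept only through TR1, where it was high), and below for 1 (3.23%), GADD45A.

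Most member differences were small and bounded. The median difference over the 31 probes was 0.00 in TR1, 0.01 in TR2 and 0.02 in TR3, beside 0.02, 0.00 and 0.01 over all probes, and the median size was 0.19, 0.14 and 0.14, beside 0.13, 0.12 and 0.11. The 95% interval lay within 1.5-fold either way of WT for 20, 25 and 20 of 31 probes, and within 2-fold for 30, 31 and 31. The one interval that passed 2-fold was that of the other CDKN2D probe in TR1, up to 1.10 on the log2 scale.

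The WT duplicates bear on this precision. Array B of WT read higher than array A at 22 of 31 member probes, against 48% of all probes, and the median gap was 0.26, against 0.16 over all probes. The median gap between duplicates was 0.10 in TR1, 0.19 in TR2 and 0.12 in TR3, beside 0.12, 0.13 and 0.12 over all probes. In these clones array B was the higher at 16, 17 and 18 of 31 member probes, against 48.3%, 48.1% and 49.2% of all probes. In the authors' processed values, which carry replicate numbers, 3 members were called higher in replicate 2 than in replicate 1 over the 4 lines with the line held fixed (9.68%, against 3.15% of all probes), a comparison added after the data had been examined. The largest was BTG1, at 10.02 and 10.65 in WT, 10.08 and 10.39 in TR1, 10.04 and 10.42 in TR2 and 10.06 and 10.35 in TR3 for replicates 1 and 2, a difference of 0.41 ± 0.07 (adjusted p = 0.000989). DDB2 (0.26, adjusted p = 0.015) and MDM4 (0.25, adjusted p = 0.0495) were the others. What differed between the replicates was not tested.

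**Figure D4:**
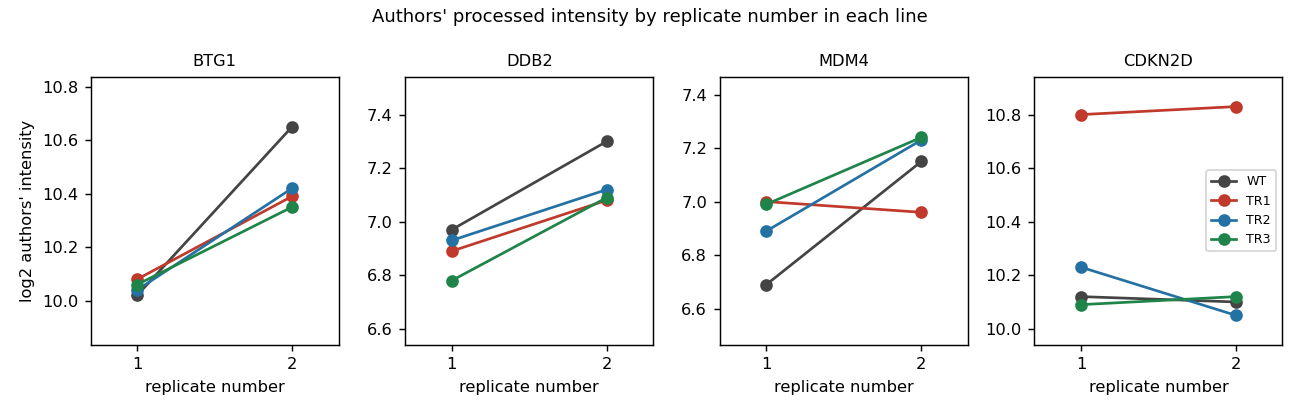
Log2 of the authors' processed intensity (vertical axis, a span of 1 unit) of 4 members in replicates 1 and 2, with 1 line for each cell line. BTG1 and DDB2 are higher in replicate 2 in all 4 lines, while CDKN2D separates TR1 from the others in both replicates.

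Further genes of the pathway, in lists that do not hold the members, were read in the same fit. Of 20 p53 activators and cofactors, 14 were detected and 0 of their 15 probes were called, with median differences of 0.06, 0.08 and 0.06 in TR1, TR2 and TR3. With the replicate block 2 were called higher in TR1, CREBBP, a coactivator (0.35, adjusted p = 0.023), and TP53BP2, a p53-binding protein gene (0.28, adjusted p = 0.041), and 0 in TR2 and TR3. The block called 3.53% of all probes higher in TR1. Of 25 further p53 target genes, 17 were detected through 21 probes, of which 1 was called lower in TR1, 0 in TR2 and 1 in TR3, both by PERP (background 1.65% lower in TR1 and 0.221% in TR3). PERP, which encodes a membrane protein of cell adhesion and p53-linked death, read 4.89 and 4.93 in WT, 4.24 and 4.23 in TR1, 5.09 and 4.92 in TR2 and 4.25 and 4.25 in TR3. It was detected on both WT and both TR2 arrays and on 0 others, so WT was at least 1.05-fold above TR1 and at least 1.12-fold above TR3. The probe had passed the detection rule only through WT and TR2, where it was high, so its calls are given as counts and not as support. The count in TR1 fell to 0 with an offset of 50 and without WT array B or either TR1 array. The count in TR3 fell to 0 with an offset of 50, no filter, a trended robust prior, array weights, only the compared arrays, or any single array left out. With the block, EI24, a p53-induced gene of the endoplasmic reticulum, was also called lower, at -0.39 in TR2 (adjusted p = 0.022) and -0.42 in TR3 (adjusted p = 0.019). Of all probes the block called 3.88% in TR2 and 2.25% in TR3, either way.

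Later cyclins, kinases and G1/S regulators, 25 genes that were all detected, had 0 calls among 31 probes and median differences of 0.02, 0.01 and 0.05. Of 24 E2F targets of DNA replication 22 were detected, with 0 calls among 28 probes and medians of -0.08, 0.03 and 0.07. With the replicate block, the later cyclins and regulators had 3 higher probes in TR1 (CDK2, E2F2 and RBL2) and 2 lower (CCNA1 and TFDP2). The replication genes had 2 higher, both of PCNA, and 3 lower (RRM2, RFC3 and MCM7). Of all probes 3.53% were higher and 5.24% lower. Other detected probes of CDK2, PCNA, RFC3 and MCM7 were not called in TR1. In TR2 the block gave 2 higher among the later cyclins and regulators (CDK2 and E2F8) and 1 higher among the replication genes (MCM7). Of all probes 3.88% were called either way in TR2. In TR3 it gave 1 lower (CCNA1) and 1 higher (RFC3), against 2.25% of all probes.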

How the data were processed

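Total RNA from the 8 cultures was amplified, biotin-labelled and hybridised to the arrays, per the labels' protocols. The authors deposited a non-normalized table of probe intensity with a detection p-value for each array, per the file headers, and a table of processed intensity. The submitters' processing notes name limma, with no version or role. The intensities were corrected with limma 3.58.1 (R 4.3.3) by normexp with an offset of 16, the background being estimated through the detection p-values, then log2-transformed and quantile-normalised. Group means of the 4 lines were fitted to the 13130 detected probes (lmFit and eBayes, 4 residual and 5.66 prior degrees of freedom), with Benjamini-Hochberg adjustment and a threshold of 0.05. The model was tested on simulated data with errors independent between arrays, so the pairing of samples by replicate number was not covered. With 2 arrays a line, the number of arrays limits precision.

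The platform annotation gave 1 gene symbol for 19715 of 22184 probes, none for 2469 and several for 0, and 19695 symbols were updated by gene identifier. Probes of a gene were kept apart. Promoter sequences are from RefSeq (GRCh38.p14), searched on both strands. The members and lists were chosen with earlier results of these data known. Every member was accounted for, with every array's value given for members with a call and for those among the 5 largest differences in a clone, and of the other pathway lists, genes called in a clone against WT were named.

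The non-normalized columns carry the letters A and B, which the labels do not match to replicate numbers 1 and 2. At the member probes the change from A to B had the direction of that from replicate 1 to 2 in each line. BTG1 changed by 0.66, 0.32, 0.40 and 0.30 from A to B in WT, TR1, TR2 and TR3. From replicate 1 to 2 it changed by 0.64, 0.31, 0.38 and 0.29. By these values A went with replicate 1 and B with replicate 2. The processed columns carry the numbers, so the block was fitted on log2 of those values. On them the other CDKN2D probe differed by -0.5 in TR3 against TR1 with and without the block, beside -0.78 in the main fit. Deviations of same-numbered samples correlated in all 6 line pairs (r = 0.28 to 0.432), and the numbers were taken to pair the samples. No sample column was left unmapped. Alternatives covered background, offset, normalisation, filter, prior, array weights, the authors' values and each array left out.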

Additional observations from a re-analysis of the deposited data

Results flagged for a closer look

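CDKN2D differed between the clones. Relative to TR1 the log2 difference was -0.70 in TR2 (adjusted p = 0.0046) and -0.73 in TR3 (adjusted p = 0.0091), and the F test among the clones gave an adjusted p of 0.005. The dimmer CDKN2D probe had -0.45 and -0.78 in the same comparisons, with adjusted p of 0.19 and 0.058. TP53I3 also differed among the clones by the F test (adjusted p = 0.049), which the other TP53I3 probe did not follow. Only lines with 2 arrays were at hand, so single arrays were not screened as outliers.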

How the results depend on the processing

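No member difference that was called reversed its direction under any alternative tried, and 4139 of the member results kept their side of the threshold, 30 gained a call and 16 lost one. Most of the 4139 had no call to lose, so that count says little about the calls. All 16 losses fell on calls of CDKN2D or TP53I3. The count of members called in TR1 against WT, 1 as reported, was 2 with a trended robust prior and 4 with the replicate block, and ranged from 0 to 3 with 1 array left out. The counts for TR2, TR3 and the mean of the clones stayed at 0 in each alternative that gave one, and the fit restricted to the compared arrays gave no value for the mean. The F test count of 2 was 1 without the detection filter. It was 3 with array weights, a trended robust prior, the replicate block or only the compared arrays, and 0 to 3 with 1 array left out. TR2 against TR1, with 1 call, gave 3 with the replicate block and 0 to 2 with 1 array left out. TR3 against TR1, with 1 call, gave 2 with no background correction, an offset of 50, a trended robust prior, array weights, the authors' values with and without the replicate block, and only the compared arrays, and 0 to 2 with 1 array left out. TR3 against TR2, with 0 calls, gave 1 with a trended robust prior, array weights and the replicate block, and 0 to 1 with 1 array left out. The cause was not tested. The call of CDKN2D in TR1 needs both TR1 arrays, and its TR2 against TR1 call is lost without TR2 array B (adjusted p = 0.053). Dim probes near the detection limit, among them PLK3 and the other TP53I3 probe, are the least certain. Where a line is left with 1 array, that array is assumed to vary like the other lines.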
